A study of Homo sapiens with 12 samples.

Results

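The genes examined were 6 genes that recurrently carry a second mutation beside KIT in systemic mastocytosis, TET2, ASXL1, SRSF2, EZH2, JAK2 and NRAS, and the DNA methyltransferase genes DNMT1, DNMT3A and DNMT3B, of which DNMT3A also belongs to the mutated genes. They were chosen by name and make up 9 of the 58381 genes in the count table. All 9 passed the filter on low counts, which left 15944 genes for testing.

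The study asked how a line of the human mast cell leukemia family HMC-1 changes when 1 of its 2 activating KIT mutations is reversed. HMC-1.2 cells carry both V560G-KIT and D816V-KIT, HMC-1.1 cells carry V560G-KIT without D816V, and HMC-1.3 cells carry D816V-KIT alone after CRISPR/Cas9 editing of HMC-1.2. HMC-1.3 was sequenced as 2 clones, and 3 polyadenylated RNA libraries were made for each of the 4 groups, with no drug treatment. Each HMC-1.3 group is a single clone, so the genotype and the history of the clone cannot be told apart within it, and HMC-1.1 is a separate subline that was not made by editing. The 3 libraries of a group came from replicate wells, so the p-values below measure the spread between such cultures only, which may be technical.

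KIT is the receptor tyrosine kinase on which mast cells depend, and the genes above act at other levels of the cell. TET2 oxidises methylcytosine, which opens the way to DNA demethylation, whereas DNMT1 copies methylation onto the new strand after replication and DNMT3A and DNMT3B set it at new sites. EZH2 is the catalytic subunit of the Polycomb repressive complex PRC2, and ASXL1 is the partner of the deubiquitinase BAP1. SRSF2 is a splicing factor of the serine- and arginine-rich (SR) family, JAK2 is a cytokine receptor kinase, and NRAS is a small GTPase that relays signals from receptors such as KIT.

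The libraries held 29225900 to 43181402 expected counts each. KIT, the edited gene, had a mean level of 450 ± 21.4 FPKM (fragments relative to transcript length and total) in clone 1, 405 ± 6.83 in clone 2, 414 ± 7.89 in HMC-1.1 and 356 ± 8.55 in HMC-1.2 (SD, n = 3 each). Its level cannot check an edit of single bases. All 12 mast cell markers examined passed the filter and their summed level was 4577 to 5081 CPM (counts scaled to library size) over the 12 libraries, but MS4A2 and FCER1A, which encode chains of the IgE receptor, averaged 0.308 and 0.562 CPM. Single markers differed between the groups, with log2 fold changes against HMC-1.2 of -3.83 to 5.76 in clone 1. The range was -4.41 to 2.55 in clone 2 and -4.07 to 5.74 in HMC-1.1. In clone 1, 6 of the 12 were higher and 5 lower at an adjusted p under 0.05 (edgeR), beside 30.1% and 29.3% of all tested genes. Of 14 markers of other lineages 4 passed the filter and MPO was at 0 in every library. Their summed level was 3.44 to 14.2 CPM in clone 2 and 4.57 to 6.55 CPM in the other groups, the highest value being that of clone 2 replicate 3, where KRT8 alone had 459 counts. One library of each group other than HMC-1.1 is labelled as resent.

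Per length of transcript, the 9 genes covered a wide range. SRSF2 was the most abundant, with 219 ± 6.01 FPKM in HMC-1.2, followed by DNMT1 with 123 ± 3.48. NRAS had 37.9 ± 0.406, EZH2 28.9 ± 1.15, ASXL1 20.3 ± 0.347 and DNMT3B 20 ± 0.124 FPKM in the same cells. The lowest were DNMT3A with 3.68 ± 0.336, TET2 with 3.62 ± 0.17 and JAK2 with 2.99 ± 0.233 FPKM, whose spreads overlap for DNMT3A and TET2. Over the 12 libraries SRSF2 stood at the 96.8th percentile of the tested genes and JAK2 at the 32.6th. The JAK2 estimate still rested on at least 444 counts in each library.

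**Figure D1:**
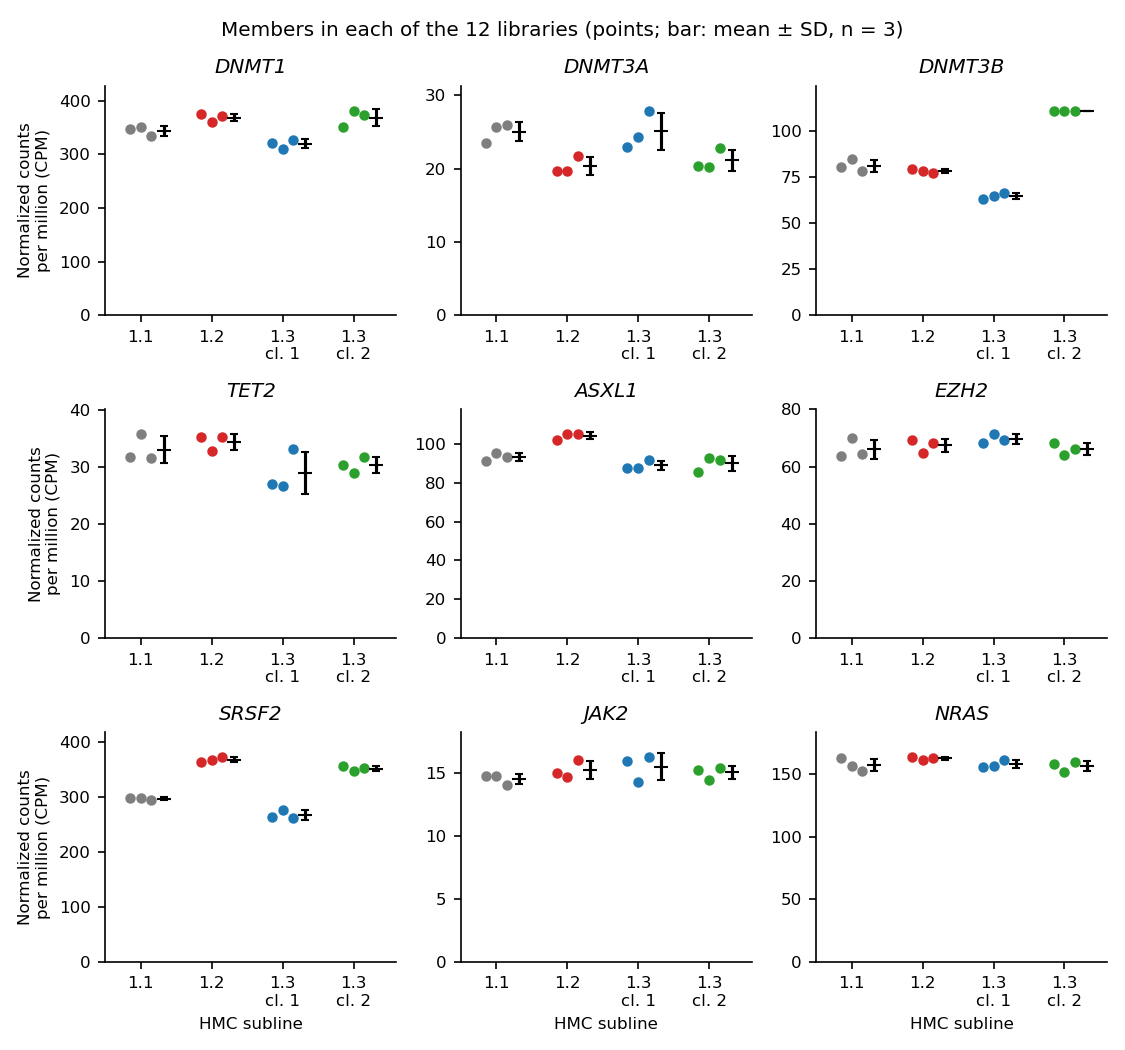
Level of each of the 9 genes in the 12 libraries, as CPM after TMM scaling on a linear axis that starts at 0, with the mean and SD of 3 libraries per group. DNMT3B lies lowest in HMC-1.3 clone 1 (63.3 to 66.5 CPM) and highest in clone 2 (111 CPM), SRSF2 is lower in HMC-1.1 and clone 1 than in HMC-1.2 and clone 2, and EZH2, JAK2 and NRAS stay nearly level.

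A gene was said to pass at an adjusted p under 0.05. By that rule, 6 of the 9 genes passed the test in clone 1 against HMC-1.2, where 59.4% of all tested genes passed. Of these 6, 1 was higher and 5 were lower, beside 30.1% of all tested genes higher and 29.3% lower. In clone 2 against HMC-1.2, 2 of 9 passed where 48.5% of all genes did, and both directions had 1 gene, beside 24.7% higher and 23.8% lower. For HMC-1.1 over HMC-1.2, 4 of 9 passed where 53.7% did, 1 of them higher and 3 lower, beside 27.2% and 26.5%. Between the clones 4 of 9 passed where 50.2% did, and 3 were higher and 1 lower in clone 2, beside 24.7% and 25.5%. Against HMC-1.1 it was 3 of 9 in clone 1, where 18.7% passed, and 4 of 9 in clone 2, where 36% passed. With 9 genes these counts are read as a description only, and the genes are described one by one below. None of the 9 passed with over 1.5-fold against HMC-1.2 or HMC-1.1, where 20%, 16.5% and 17.6% of all genes did so in clone 1, clone 2 and HMC-1.1 against HMC-1.2, and 1.01% and 8.19% in clone 1 and clone 2 against HMC-1.1.

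**Figure D2:**
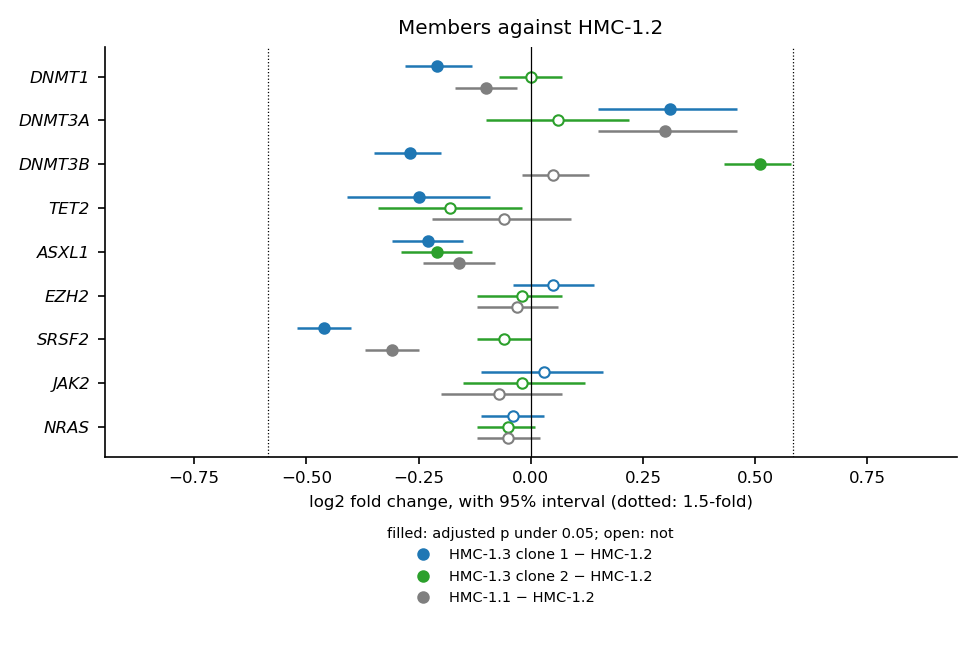
Log2 fold change of the 9 genes in both HMC-1.3 clones and in HMC-1.1, each against HMC-1.2, with 95% intervals, filled where the adjusted p was under 0.05 and with dotted lines at 1.5-fold. All 3 comparisons use the same HMC-1.2 libraries, ASXL1 lies below 0 in each (-0.23, -0.21 and -0.16), and DNMT3B lies on opposite sides of 0 in the clones (-0.27 and 0.51).

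DNMT3B separated the edited clones most clearly. Scaled for library size, it was measured at 63.3, 64.6 and 66.5 CPM in the 3 libraries of clone 1 and at 111, 111 and 111 CPM in those of clone 2. The HMC-1.2 libraries had 79.2, 78.4 and 77 CPM, and the HMC-1.1 libraries had 80.3, 84.8 and 78.4 CPM. Every library of clone 1 therefore lay below, and every library of clone 2 above, all 6 libraries of the unedited sublines, which overlapped each other. Against HMC-1.2, DNMT3B fell by 0.27 ± 0.04 on the log2 scale in clone 1 (± SE, edgeR quasi-likelihood test, adjusted p = 4.7e-06) and rose by 0.51 ± 0.03 in clone 2 (adjusted p = 1.8e-09). Between HMC-1.1 and HMC-1.2 the difference was 0.05, with a 95% interval of -0.02 to 0.13 and an adjusted p of 0.22. Bulk RNA cannot tell a change in every cell from a change in the share of cells that express a gene, here and for all results below.

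Set directly against each other, the clones differed in DNMT3B by a log2 fold change of 0.78 ± 0.03, or 1.71-fold (clone 2 over clone 1, 95% interval on the log2 scale 0.7 to 0.85, adjusted p = 1.5e-11). This was the only one of the 9 genes over 1.5-fold in any of the 6 comparisons of the 4 groups. Of all tested genes, 12.6% passed both that fold and the test between the clones, and DNMT3B stood at the 88.6th percentile of the size of change. It passed as well when the test was made against a 1.5-fold change rather than against no change.

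**Figure D3:**
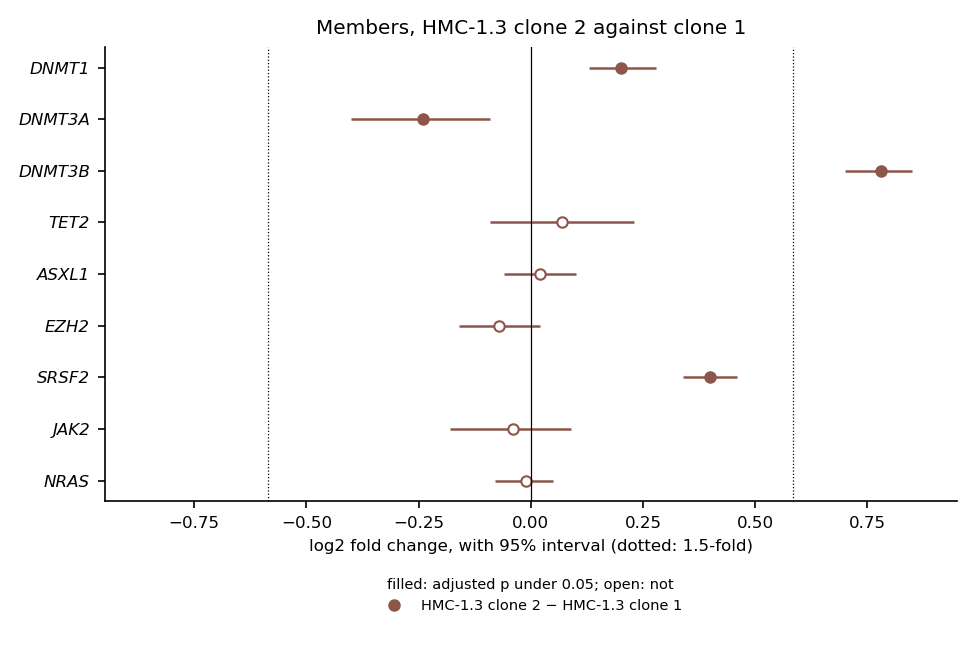
Log2 fold change of the 9 genes in HMC-1.3 clone 2 over clone 1 with its 95% interval, filled where the adjusted p was under 0.05, with dotted lines at 1.5-fold. DNMT3B (0.78), SRSF2 (0.40) and DNMT1 (0.20) were higher in clone 2 and DNMT3A (-0.24) was lower, while the other 5 intervals include 0.

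Most genes around DNMT3B differed less between the clones. DNMT3B lies on chromosome 20 (GRCh38, Gencode 44, plus strand, 32762385 to 32809359), 323 kb beyond ASXL1 (32358330 to 32439319, same strand). Over the 10 nearest tested genes on each side, the median log2 fold change of clone 2 over clone 1 was 0.03. Of these 20 genes, 7 were higher and 3 lower in clone 2, beside 24.7% and 25.5% of all tested genes. Only 1 of the 20 exceeded DNMT3B. That 1, named after its value was seen, was BPIFB3, at 0.95 ± 0.32. ASXL1, itself among the 20, was at 0.02. For clone 2 over HMC-1.2 the median of the neighbours was -0.03 beside 0.51 for DNMT3B, and for clone 1 over HMC-1.2 it was 0.05 beside -0.27.

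**Figure D4:**
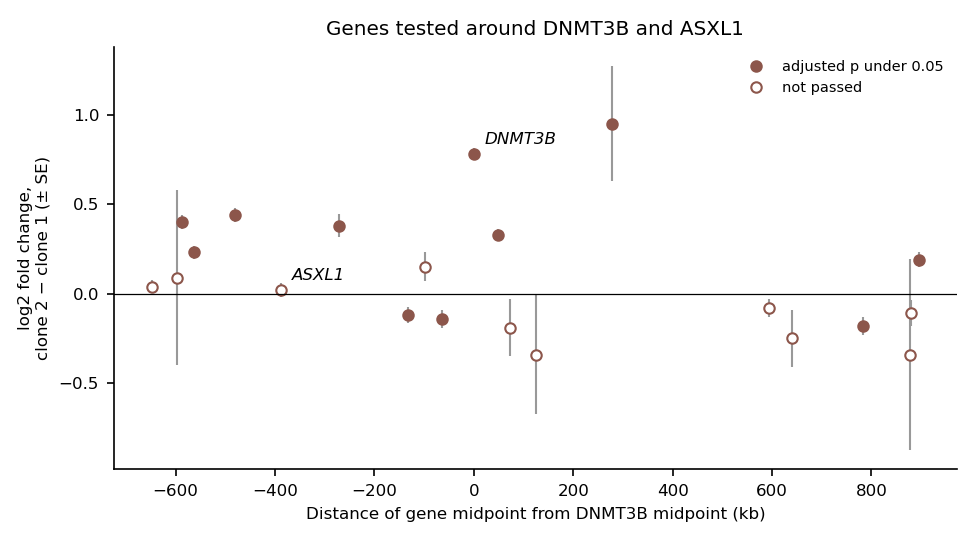
Log2 fold change (± SE) of HMC-1.3 clone 2 over clone 1 for DNMT3B and the 10 nearest tested genes on each side, by the distance between gene midpoints in kb, filled where the adjusted p was under 0.05. DNMT3B stands at 0.78 among neighbours with a median of 0.03, and ASXL1 is at 0.02.

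DNMT1, the maintenance enzyme, was lowest in clone 1 and about level in HMC-1.2 and clone 2. Its libraries had 375, 361 and 371 CPM in HMC-1.2, 351, 382 and 374 CPM in clone 2, 348, 352 and 334 CPM in HMC-1.1 and 322, 311 and 327 CPM in clone 1. The clone 1 libraries lay below all others, and those of clone 2 overlapped those of HMC-1.2. DNMT1 was lower in clone 1 than in HMC-1.2 by a log2 fold change of -0.21 ± 0.03 (adjusted p = 7.1e-05) and higher in clone 2 than in clone 1 by 0.20 ± 0.03 (adjusted p = 0.00011). Between clone 2 and HMC-1.2 the estimate was 0, with a 95% interval of -0.07 to 0.07. The difference of HMC-1.1 from HMC-1.2 was -0.10 (adjusted p = 0.022), and those of clone 1 and clone 2 from HMC-1.1 were -0.11 (adjusted p = 0.043) and 0.10 (adjusted p = 0.034). All of these smaller differences lost their call when single libraries were left out, the first without HMC-1.1 replicate 3 (adjusted p = 0.092), HMC-1.2 replicate 1 (0.071) or HMC-1.2 replicate 3 (0.058). That of clone 1 was lost without HMC-1.1 replicate 1 or 2, HMC-1.2 replicate 2, or clone 1 replicate 1 or 2 (adjusted p of 0.051 to 0.14), and that of clone 2 without HMC-1.1 replicate 3 or clone 2 replicate 2 or 3 (0.085 to 0.14).

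DNMT3A ran the other way. It had 19.7, 19.6 and 21.7 CPM in HMC-1.2 and 20.4, 20.2 and 22.8 CPM in clone 2, against 23, 24.3 and 27.9 CPM in clone 1 and 23.5, 25.6 and 25.9 CPM in HMC-1.1. The libraries of clone 1 and HMC-1.1 thus lay above all those of HMC-1.2 and clone 2. DNMT3A rose in clone 1 over HMC-1.2 by 0.31 ± 0.07 (log2, adjusted p = 0.0018) and in HMC-1.1 over HMC-1.2 by 0.30 ± 0.07 (adjusted p = 0.0023), and was lower in clone 2 than in clone 1 (-0.24 ± 0.07, adjusted p = 0.0098). The last call was lost without clone 1 replicate 3 (-0.16, adjusted p = 0.068) or without clone 2 replicate 2 (-0.20, adjusted p = 0.051), and without all 3 resent libraries (-0.14, adjusted p = 0.17).

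The 2 deposited units disagreed on the size of this change. In FPKM, DNMT3A averaged 4.08 ± 0.242 in clone 1, 3.78 ± 0.626 in clone 2, 4.07 ± 0.749 in HMC-1.1 and 3.68 ± 0.336 in HMC-1.2, and limma on log2(FPKM + 1) gave 0.12 for clone 1 over HMC-1.2 (adjusted p = 0.42). If FPKM divides by a length estimated in each library, the count divided by the FPKM is proportional to that length. Relative to HMC-1.2 that length was 1.14 ± 0.0516 in clone 1 and 1.15 ± 0.179 in HMC-1.1, at the 95.1st percentile of such shifts among 11661 genes. For the other 8 genes it was 0.954 to 1.02. The 3 libraries of clone 1 lay at 1.11 to 1.2, those of HMC-1.1 at 0.967 to 1.32 and those of clone 2 at 0.951 to 1.17, so only in clone 1 did each library exceed all of HMC-1.2 (0.973 to 1.03). Which transcripts were used was not tested.

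The genes that keep, read and remove DNA methylation were described as lists. Of 12 genes for maintenance and reading, 6 were higher and 3 lower in clone 2 than in clone 1, beside 24.7% and 25.5% of all tested genes. Their median log2 fold change was 0.14 against -0.01 over all tested genes. In clone 1 against HMC-1.2, 1 was higher and 4 lower, beside 30.1% and 29.3%. UHRF1, which brings DNMT1 to newly replicated DNA, averaged 158 ± 3.36 CPM in HMC-1.2, 124 ± 5.37 in clone 2, 109 ± 2.13 in HMC-1.1 and 90.7 ± 1.73 in clone 1. Its fall in clone 1 against HMC-1.2 was -0.80 ± 0.04 (log2, adjusted p = 4.4e-12), and it was 0.45 ± 0.04 higher in clone 2 than in clone 1 (adjusted p = 1.9e-08). UHRF1 was thus ordered as DNMT1 was, except that clone 2 stayed below HMC-1.2 (-0.35, adjusted p = 2.1e-07).

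MBD2, a reader of methylated CpG, was higher in clone 2 than in HMC-1.2 by 0.63 ± 0.04 (log2, adjusted p = 3.3e-10) and did not pass in clone 1 (-0.06, adjusted p = 0.18). MBD2 lies on chromosome 18, where 18 of its 20 nearest tested genes were also higher in clone 2 than in HMC-1.2, with a median of 0.65. DNMT3L, the catalytically inactive relative of DNMT3A and DNMT3B, averaged 0.264 CPM, too little to compare. TRDMT1, a tRNA methyltransferase of the same family, fell in HMC-1.1 relative to HMC-1.2 (-0.47 ± 0.10, adjusted p = 0.00059) and lay at the threshold in clone 1 (-0.23, an adjusted p that rounds to 0.05 from below).

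Of the 11 genes for demethylation, 6 were higher and 3 lower in clone 1 than in HMC-1.2 (median 0.31), beside 30.1% and 29.3% of all tested genes. But 2 were higher and 5 lower in clone 2 than in clone 1 (median -0.15), beside 24.7% and 25.5%. TET1 was low throughout, at 0.807 ± 0.0153 FPKM in HMC-1.2, and rose over HMC-1.2 by 0.64 ± 0.09 in clone 1, 0.72 ± 0.09 in HMC-1.1 and 0.42 ± 0.09 in clone 2 (log2, adjusted p = 7.4e-06, 2.2e-06 and 0.00085). TET3, at 3.75 ± 0.401 FPKM in HMC-1.2, fell in clone 1 (-0.34, adjusted p = 0.0088) and did not pass in clone 2 (-0.13, adjusted p = 0.31). TDG, the glycosylase that excises oxidised methylcytosine, fell by 0.76 in clone 1 and by 0.51 in HMC-1.1, and by 0.19 in clone 2. The stress-induced GADD45A rose in all 3 groups against HMC-1.2, by 0.98 in clone 1, 0.68 in HMC-1.1 and 0.82 in clone 2, whereas GADD45B fell by 0.75, 0.78 and 0.47. These 3 contrasts have the HMC-1.2 libraries in common.

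Of 18 germline genes that are commonly silenced by promoter methylation, 6 passed the filter on low counts, and 2 (MAEL and SYCE1) were at 0 in every library. The summed level of the 18 was 1188 to 1413 CPM over the 12 libraries, so the list was not silent as a whole. Of the 6, 1 was higher and 3 lower in clone 1 than in HMC-1.2, beside 30.1% and 29.3% of all tested genes. In clone 2 against HMC-1.2, 2 were higher and 2 lower, beside 24.7% and 23.8%. In clone 2 against clone 1, 3 were higher and 0 lower, where 24.7% and 25.5% of all tested genes were higher and lower. CTAG2, named after its values were seen, had 20 to 48 counts in the HMC-1.2 libraries and at most 1 count in any other library. MAGEA1, a cancer-testis antigen gene, was higher in clone 2 than in clone 1 by 0.47 ± 0.04 (log2, adjusted p = 3.6e-08) and than in HMC-1.2 by 0.68 ± 0.04, and it has near-identical family members. DNA methylation itself was not measured.

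Promoter sequence is shown for DNMT3B and DNMT1, which both differed between the clones and have a single entry each in the RefSeq promoter table (GRCh38.p14, 250 bases before to 50 after the start). Capitals mark CpG dinucleotides, the sites these enzymes methylate. The DNMT3B window, chr20:32779602-32779901 on the plus strand, holds 3 CpGs, fewer than most promoters (percentile 18.2). The DNMT1 window, chr19:10194904-10195203 on the minus strand, holds 30 CpGs, above the median promoter with 14 (percentile 77.6). Both windows lie inside the Gencode span of their gene and not at its first annotated base.
DNMT3B: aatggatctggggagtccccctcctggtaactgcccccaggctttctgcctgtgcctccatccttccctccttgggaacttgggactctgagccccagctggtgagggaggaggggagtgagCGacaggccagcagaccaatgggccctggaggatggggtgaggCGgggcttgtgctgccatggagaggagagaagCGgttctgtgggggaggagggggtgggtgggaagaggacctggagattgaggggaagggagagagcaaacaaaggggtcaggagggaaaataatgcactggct
DNMT1: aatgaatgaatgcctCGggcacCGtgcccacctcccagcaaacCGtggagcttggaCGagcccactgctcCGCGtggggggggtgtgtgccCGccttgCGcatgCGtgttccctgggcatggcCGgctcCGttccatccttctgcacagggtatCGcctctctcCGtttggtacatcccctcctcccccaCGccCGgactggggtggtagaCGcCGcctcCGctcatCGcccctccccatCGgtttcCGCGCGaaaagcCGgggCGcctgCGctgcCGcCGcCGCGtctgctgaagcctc

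Neither window held any of the 5 motifs searched on both strands of 35116 promoters. The E2F motif searched was GCGGGAA, which occurs in 6.55% of all promoters in the table. For the E-box the letters were CACGTG, present in 7.26% of them, and for STAT factors TTCNNNGAA, present in 7.66%. The GATA factor motif, spelled AGATAAG, was in 2.68% of the promoters, while the ETS motif, spelled CCGGAAG, was in 10.3%. Among the 20 windows found for 8 of the 9 genes, the E-box occurred at TET2, at DNMT3A (in 2 of its 6 windows) and at NRAS, the STAT motif at ASXL1, and the ETS motif at ASXL1 and NRAS. Those 2 windows of DNMT3A overlap, and the E-box is the same site in both. SRSF2 was not matched in the table. A match describes the letters of a window and not the binding of a factor.

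SRSF2 changed more than any other of the 6 recurrently mutated genes. It had 363, 368 and 373 CPM in HMC-1.2, 356, 347 and 353 CPM in clone 2, 299, 298 and 295 CPM in HMC-1.1 and 263, 277 and 262 CPM in clone 1. No 2 of the 4 groups overlapped. Against HMC-1.2 it fell by 0.46 ± 0.03 on the log2 scale in clone 1 (adjusted p = 3.8e-10) and by 0.31 ± 0.03 in HMC-1.1 (adjusted p = 9.1e-08). In clone 2 the estimate was -0.06 ± 0.03, which did not pass (adjusted p = 0.073, or 0.043 with upper-quartile scaling), and clone 2 exceeded clone 1 by 0.40 ± 0.03 (adjusted p = 5.5e-09).

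SRSF2 lies on chromosome 17 (76734115 to 76737333, minus strand), and 823 of its exonic bases are shared with MFSD11 on the opposite strand. MFSD11 averaged 486 counts per library against at least 9209 for SRSF2, and it was higher in clone 1 than in HMC-1.2 (0.38 ± 0.07), the opposite of SRSF2. The library kit keeps strand, but the strand setting of the counting was not given in the sources used here. The 20 nearest tested genes had a median of -0.05 for HMC-1.1 over HMC-1.2, of -0.02 for clone 1 over HMC-1.2 and of 0.06 for clone 2 over clone 1.

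Splicing factors were counted as a list. Of 18 SR proteins, SR kinases and splicing factors mutated in myeloid neoplasms, 2 were higher and 11 lower in clone 1 than in HMC-1.2 (median -0.14 against 0.01 over all tested genes, of which 30.1% were higher and 29.3% lower), 4 were higher and 9 lower in HMC-1.1 (median -0.10), and 4 were higher and 3 lower in clone 2 (median 0.01). Between the clones, 11 were higher and 2 lower in clone 2, with a median of 0.17. Relative to HMC-1.2, 27.2% of all tested genes were higher and 26.5% lower in the HMC-1.1 libraries. For clone 2 these shares were 24.7% and 23.8% relative to HMC-1.2, and 24.7% and 25.5% relative to clone 1. SRSF1, which encodes the founding SR protein, fell by 0.68 ± 0.03 in clone 1, by 0.43 in HMC-1.1 and by 0.13 in clone 2. U2AF2, the large subunit of the factor that binds the polypyrimidine tract, fell by 0.65, 0.35 and 0.10, and PRPF8, a core spliceosome protein, by 0.62, 0.28 and 0.15 in the same order, all past the test.

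Proliferation genes were counted in the same way. Of 18 such genes, 1 was higher and 15 were lower in clone 1 than in HMC-1.2 (median -0.23), beside 30.1% and 29.3% of all tested genes. In clone 2 against HMC-1.2, 2 were higher and 9 lower (median -0.11), beside 24.7% and 23.8%. In clone 2 against clone 1, 11 were higher and 3 lower (median 0.13), beside 24.7% and 25.5%. Their summed level, scaled to library totals without TMM, was lowest in clone 1 with 4242 to 4307 CPM and highest in HMC-1.2 with 4926 to 5006 CPM. Clone 2 with 4397 to 4540 and HMC-1.1 with 4492 to 4636 CPM lay between and overlapped. RRM2, a subunit of ribonucleotide reductase, fell by 1.05 in clone 1, 0.79 in HMC-1.1 and 0.46 in clone 2 (log2), and CCNE2, a cyclin of the entry into S phase, fell by 0.89 in clone 1 and was 0.78 higher in clone 2 than in clone 1. TYMS and CDK1 were lower in clone 2 than in HMC-1.2, both by a log2 fold change of -1.02. TYMS lies on chromosome 18 among 15 tested neighbours with a median of -1.08 in that comparison. The part of cell growth in the levels of DNMT1, UHRF1 and the splicing factors was not tested.

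**Figure D5:**
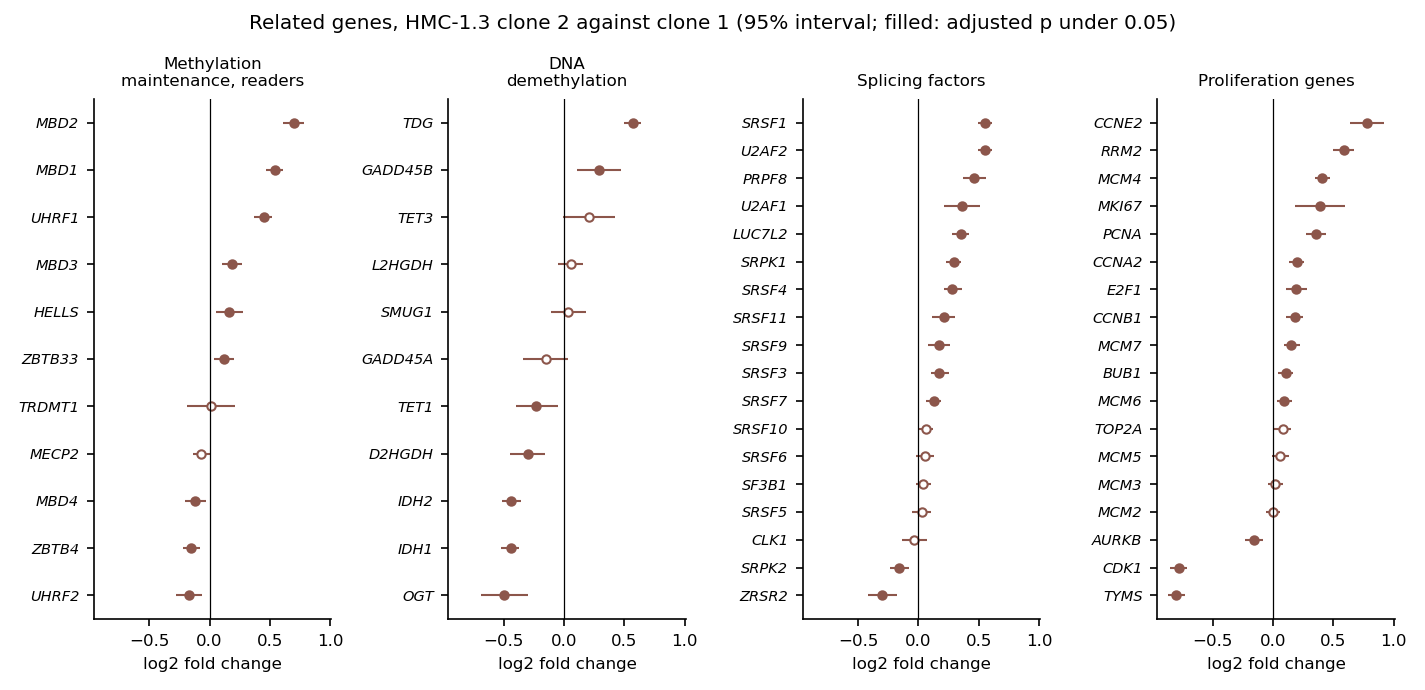
Log2 fold change of HMC-1.3 clone 2 over clone 1, with 95% intervals, for the genes of 4 lists that averaged 1 CPM or more, filled where the adjusted p was under 0.05. Of 18 splicing factors 11 were higher and 2 lower in clone 2, and of 18 proliferation genes 11 were higher and 3 lower. Of all tested genes 24.7% were higher and 25.5% lower.

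ASXL1 was highest in the cells with both KIT mutations. Its libraries had 102, 105 and 105 CPM in HMC-1.2, against 90.9, 95.1 and 93.3 in HMC-1.1, 87.6, 87.2 and 91.6 in clone 1 and 85.5, 92.7 and 91.6 in clone 2. The HMC-1.2 libraries lay above the other 9, and those 9 overlapped between groups. ASXL1 fell by 0.23 ± 0.04 in clone 1 (log2, adjusted p = 4.2e-05), by 0.21 ± 0.04 in clone 2 (adjusted p = 0.00014) and by 0.16 ± 0.04 in HMC-1.1 (adjusted p = 0.0014), 3 comparisons that share the HMC-1.2 libraries. Clone 2 and clone 1 differed by 0.02, with a 95% interval of -0.06 to 0.1. The 20 nearest tested neighbours of ASXL1 had a median of -0.03 in clone 1 over HMC-1.2, and the nearest 40 one of 0.10.

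Of the 9 relatives and partners of ASXL1, 8 were tested. Against HMC-1.2, 2 were higher and 5 lower in clone 1 (median -0.19), and 1 was higher and 2 lower in clone 2 (median -0.02). Of all tested genes 30.1% were higher and 29.3% lower in clone 1, and 24.7% and 23.8% in clone 2. ASXL2 fell by 0.26 in clone 1, 0.29 in HMC-1.1 and 0.39 in clone 2, all past the test. ASXL3 did not pass the filter. None of the 8, BAP1 included, passed the test with over 1.5-fold in any comparison, where 1.01% to 20% of all tested genes did so.

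TET2 was near the threshold. Its libraries had 35.2, 32.8 and 35.3 CPM in HMC-1.2, 31.7, 35.8 and 31.6 in HMC-1.1, 30.4, 29 and 31.8 in clone 2 and 27.1, 26.6 and 33.2 in clone 1. The value of 33.2 came from clone 1 replicate 3, labelled as resent, and lay within the range of HMC-1.2. TET2 was lower in clone 1 than in HMC-1.2 by a log2 fold change of -0.25 ± 0.08 (adjusted p = 0.0084) and in clone 2 by -0.18 ± 0.07, which did not pass (adjusted p = 0.054) although the CPM ranges did not overlap. Without clone 1 replicate 3, clone 1 was also below HMC-1.1 (-0.29, adjusted p = 0.0036, against -0.19 and 0.091 with it) and clone 2 above clone 1 (0.18, adjusted p = 0.027, against 0.07 and 0.46), and TET2 then passed in clone 2 against HMC-1.2 as well (adjusted p = 0.012). The fall in clone 1 did not pass in FPKM (limma on log2(FPKM + 1), -0.15, adjusted p = 0.15). The 20 nearest tested genes on chromosome 4 had a median of 0.24 in clone 1 over HMC-1.2, of the opposite sign to TET2, or of 0.08 over 40 genes.

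EZH2, JAK2 and NRAS did not pass the test in any of the 6 comparisons, although with upper-quartile scaling EZH2 was lower in clone 2 than in clone 1 (-0.11, adjusted p = 0.045, against -0.07 and 0.17). EZH2 ranged from 63.8 to 71.5 CPM, JAK2 from 14.1 to 16.3 CPM and NRAS from 152 to 164 CPM over the 12 libraries. Each 95% interval was taken singly, for the clones over HMC-1.2 or HMC-1.1, HMC-1.1 over HMC-1.2, and clone 2 over clone 1. In these directions the intervals reached a fall of at most 7.98% and a rise of at most 4.97% for NRAS. The bounds were 10.5% and 12.5% for EZH2, and 12.9% and 17.3% for JAK2. In the reverse direction a fall becomes a rise, and the 6 intervals do not bound all comparisons jointly. For NRAS, clone 2 lay just below HMC-1.2 in every library, at 158, 152 and 160 against 164, 162 and 163 CPM, with an adjusted p of 0.17.

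Partners of these 3 genes were described as lists. In PRC2, EZH1, the alternative catalytic subunit, did not pass in any comparison, at 6.63 ± 0.289 FPKM in HMC-1.2. The accessory subunit gene PHF19 fell by 1.00 in clone 1, 1.19 in HMC-1.1 and 0.83 in clone 2 (log2 against HMC-1.2), while RBBP7, a histone-binding subunit, rose by 0.59, 0.70 and 0.75. KDM6B, which encodes a demethylase that removes the PRC2 mark, was lower in clone 2 than in clone 1 (-0.64 ± 0.08, adjusted p = 2.5e-06). Of the 12 genes of PRC2 and its opposing demethylases, 3 were higher and 6 lower in clone 1, and 2 higher and 6 lower in clone 2 and in HMC-1.1. Of all tested genes 30.1% were higher and 29.3% lower in clone 1, 24.7% and 23.8% in clone 2, and 27.2% and 26.5% in HMC-1.1.

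Of 12 HOX, MEIS1 and CDKN2 genes, which PRC2 is known to silence, 4 were higher and 3 lower in clone 1, 4 higher and 3 lower in clone 2, and 4 higher and 2 lower in HMC-1.1 than in HMC-1.2. Of all tested genes 30.1% were higher and 29.3% lower in clone 1, 24.7% and 23.8% in clone 2, and 27.2% and 26.5% in HMC-1.1. HOXB4 fell by 1.19, 0.44 and 0.98 and HOXB3 rose by 0.65, 0.43 and 0.71 in that order. CDKN2A, which encodes cell cycle inhibitors, rose by 0.65, 0.59 and 0.57, and CDKN2C by 0.68 in clone 2. HOXA9, at a mean of 2 CPM, fell by 0.61 in clone 1.

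Around JAK2, the family members differed. JAK1, which pairs with JAK2 at several receptors, rose over HMC-1.2 by 0.22 in clone 1, 0.28 in HMC-1.1 and 0.23 in clone 2 (log2), whereas JAK3 fell by 0.62, 0.49 and 0.13, all past the test. TYK2 fell in clone 1 relative to HMC-1.2 (-0.13, adjusted p = 0.0018) and did not pass in clone 2 or HMC-1.1, while clone 2 exceeded clone 1 by 0.16 (adjusted p = 0.00049). The feedback inhibitor SOCS3 was 1.32 lower in clone 1 than in HMC-1.2 but 0.40 higher in clone 2, a difference of 1.73 ± 0.10 between the clones (adjusted p = 6.9e-10). SOCS1 fell by 0.62 in clone 1, and CISH, a target and inhibitor of cytokine signalling, was 0.67 higher in clone 2 than in clone 1. PTPN2, a phosphatase gene on chromosome 18, was 0.92 lower in clone 2 than in HMC-1.2, among 20 neighbours with a median of -0.91. Of the 12 genes of the JAK family and its restraint, 8 were higher and 1 was lower in clone 2 than in clone 1. The shares over all tested genes were 24.7% and 25.5%.

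Around NRAS, HRAS fell relative to HMC-1.2 by 0.63 in clone 1 and 0.49 in HMC-1.1, and was at 0 in clone 2 (adjusted p = 0.97), with a difference of 0.63 ± 0.07 between the clones (adjusted p = 1.5e-06). The exchange factor RASGRP4, which is known from mast cells, averaged 0.968 ± 0.217 CPM in HMC-1.2, 15.6 ± 1.42 in clone 1, 14.9 ± 0.923 in HMC-1.1 and 2.88 ± 0.0517 in clone 2. It was higher in clone 2 than in HMC-1.2 (log2 fold change 1.56 ± 0.15, adjusted p = 2.2e-07) and lower than in clone 1 (-2.44 ± 0.10, adjusted p = 6.3e-12). RASGRP2 fell by 0.86, 1.18 and 1.00 in clone 1, clone 2 and HMC-1.1 relative to HMC-1.2. Over all 16 genes of the list, 6 were higher and 5 lower in clone 1, and 6 higher and 2 lower in clone 2. The shares over all tested genes were 30.1% and 29.3% in clone 1 and 24.7% and 23.8% in clone 2.

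Over the 12 libraries, which fall into 4 groups and so are not independent points, the log2 CPM of SRSF2 correlated with that of DNMT1 (Pearson's r = 0.87) and inversely with that of DNMT3A (r = -0.81). DNMT1 and DNMT3B had an r of 0.71 and TET2 and ASXL1 also 0.71, whereas ASXL1 and DNMT3B, neighbours on chromosome 20, had -0.08. Among the 10887 genes that averaged 5 CPM or more, the pattern most like that of DNMT3B belonged to DCBLD2 (r = 0.984), ABCE1 (0.977) and DPYSL5 (0.973). DCBLD2 was higher in clone 2 than in clone 1 by 0.54, ABCE1 by 0.30 and DPYSL5 by 1.08 on the log2 scale.

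Other genes mutated beside KIT in mastocytosis numbered 17, of which 16 were tested and SETBP1 was at 0 in every library. In clone 1 against HMC-1.2, 6 of the 16 were higher and 2 lower, as in clone 2. The shares over all tested genes were 30.1% and 29.3% in clone 1 and 24.7% and 23.8% in clone 2.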

How the data were processed

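RNA of 12 libraries, 3 for each subline or HMC-1.3 clone, was measured by poly(A) RNA sequencing. Per the labels and the study's methods, the authors used cutadapt 2.10 for trimming, STAR 2.5.3 for alignment to hg38 and RSEM 1.3.0 for quantification, against Gencode release 39. They deposited 2 units for 58381 genes, namely RSEM expected counts, which share a read among the genes it can come from, and FPKM values, taken here to divide by a transcript length estimated in each library, which the file does not state. The strand setting of the counting is not given in the sources used here. Paralogs and overlapping genes can therefore exchange counts.

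Of the expected counts 7.39% were not whole, and all were rounded. Groups came from the sample labels, and 12 of 12 count columns lay nearest to the FPKM column of their own library. Totals were 29225900 to 43181402 per library. Replicates differed beyond sampling noise (chi-square per degree of freedom 2.83 to 7.67), so all 12 were kept. Genes were filtered with filterByExpr, scaled by TMM (factors 0.974 to 1.02) and tested with edgeR 4.0.16 (R 4.3.3) by the quasi-likelihood test in 1 model of 4 groups without covariates, in 6 pairwise comparisons, with Benjamini-Hochberg adjustment over 15944 genes. Adjusted p-values are from this test unless limma is named, fold changes are log2 with their standard error, and intervals cover 95% by the same model. CPM was computed after TMM scaling, except for the summed levels of gene lists and markers. Those were scaled to the library totals without TMM and include genes that failed the filter. The common biological coefficient of variation was 0.044. Alternatives were RLE and upper-quartile factors, DESeq2 1.42.0, other filters (none, or 0.5 CPM), only the groups compared, a replicate block, a term for resent libraries, a test against 1.5-fold, limma 3.58.1 on log2(FPKM + 1) and log2(FPKM + 0.1), and leaving out each library. Leaving out all resent libraries was added after seeing the data. On simulated counts for clone 1 minus HMC-1.2, edgeR found 198 of 200 changed genes with 14 false calls among 15944. In the real libraries 59.4% of all tested genes passed in that comparison, far more than were changed in the simulation. The simulated rates therefore do not give the error rate of the calls reported here.

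The 9 genes and the related lists were chosen with earlier results of these data known. List genes were named if they averaged 1 CPM or more and passed with over 1.5-fold in any comparison, and close relatives of the 9 were always given, except that some list genes are not reported here. For DNMT3B, the gene over 1.5-fold, the 3 most similar genes above 5 CPM were named. Positions are from Gencode 44, which holds 99% of the gene identifiers.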

Additional observations from a re-analysis of the deposited data

Results flagged for a closer look

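The change against HMC-1.2 differed between the 2 HMC-1.3 clones for 4 of the 9 genes. This was tested directly by the comparison of clone 2 with clone 1, in which the shared HMC-1.2 libraries cancel. In that comparison 50.2% of all tested genes passed, so 4 of 9 does not set these genes apart. The difference on the log2 scale was 0.78 for DNMT3B (edgeR, adjusted p = 1.5e-11), 0.40 for SRSF2 (adjusted p = 5.5e-09), 0.20 for DNMT1 (adjusted p = 0.00011) and -0.24 for DNMT3A (adjusted p = 0.0098). Of these, only DNMT3B moved past the test in opposite directions in the clones. Each clone stands for 1 edited cell, so clone and any effect of the edit cannot be told apart here.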

How the results depend on the processing

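Of 54 changes (9 genes in 6 comparisons) 23 passed the test, where 18.7% to 59.4% of all tested genes passed in the 6 comparisons. Over the alternatives 1296 values were computed, of which 1218 stayed on their side of the threshold, 60 lost the call and 18 gained it. The 60 include the calls dropped by the test against a 1.5-fold change, which asks for more than the main test. The direction reversed in 0 of the values that passed with either setting, while small changes that passed in neither could change sign. The gene that passed with over 1.5-fold between the clones, DNMT3B, also passed a test against 1.5-fold (adjusted p = 0.00014), which left 1 gene there and 0 in each of the other 5 comparisons. With upper-quartile factors 4 genes passed in clone 2 over HMC-1.2 instead of 2. With limma on FPKM, adding 1 or 0.1 before the log2, 2 genes passed in HMC-1.1 over HMC-1.2 instead of 4, without DNMT1 and DNMT3A. When single libraries were left out, the number passing was 2 to 4 in clone 2 over HMC-1.1 (4 with all libraries, and 2 without HMC-1.1 replicate 3 or clone 2 replicate 2), 2 to 4 in clone 1 over HMC-1.1, 3 to 4 in HMC-1.1 over HMC-1.2 and between the clones, 2 to 3 in clone 2 over HMC-1.2 and 6 in clone 1 over HMC-1.2. Over 20 rather than 10 neighbours on each side, the median in clone 1 over HMC-1.2 was 0.08 around TET2 (0.24 with 10) and 0.10 around ASXL1 (-0.03 with 10). The cause was not tested for any of these.

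With the replicate number as a block, 3 genes passed in clone 2 over HMC-1.2 instead of 2, as TET2 had an adjusted p of 0.047 instead of 0.054, and 2 in clone 1 over HMC-1.1 instead of 3, as DNMT1 had 0.051 instead of 0.043. The block changed no other call. Libraries with the same number shared little, with correlations of -0.0433 to 0.0964 over 18 pairs, and 8 of 12 libraries correlated best with their own number. Without the resent libraries, chosen after seeing the data, DNMT1 in HMC-1.1 over HMC-1.2 no longer passed (adjusted p = 0.05), TET2 in clone 1 over HMC-1.1 passed (-0.30, adjusted p = 0.006) and DNMT3A between the clones did not (-0.14, adjusted p = 0.17). The lowest count behind JAK2 was 444 per library, and SEs were 0.06 for JAK2 and 0.07 to 0.08 for TET2.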
